A study of Rattus norvegicus with 6 samples.

Results

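Endotoxin sensing was examined in the liver of rats that had received faecal microbiota, through 10 genes chosen by name: Lbp, Cd14, Ly96, Tlr4, Tlr2, Tlr5, Tlr3, Myd88, Irak1 and Traf6. Of these, 9 had a row among the 30957 genes of the count table, and Ly96 was not analysed here. The recipients were female Sprague Dawley rats, bought at 3 weeks of age and made pseudo germ-free with 3 courses of an antibiotic cocktail lasting 7 days each, which both groups received. Pooled faeces of donor rats were then given daily by gavage for 14 days, from donors injected with phosphate buffer saline (t-PBS group) or from donors injected with dehydroepiandrosterone, an androgen precursor, at 6 mg per 100 g bodyweight (t-DHEA group). Livers of 3 rats per group were sequenced, out of 6 rats per group in the experiment. Rats of a group shared a donor pool, so the spread between them covers differences between recipients and not between donors. The time of day at which the livers were taken is not given in the sources used here.

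Endotoxin, or lipopolysaccharide, is the outer membrane lipid of Gram-negative bacteria. It reaches the liver from the gut through the portal vein. Lbp, a plasma protein secreted mainly by hepatocytes, lifts single lipopolysaccharide molecules from bacterial membranes and hands them to Cd14, a receptor of macrophages and monocytes that also exists as a soluble plasma protein. Cd14 passes them to the complex of Tlr4 with MD-2 (the product of Ly96), which signals inside the cell through the adaptor Myd88, the kinase Irak1 and the ubiquitin ligase Traf6 to NF-kB. Other Toll-like receptors read other microbial molecules: Tlr2 reads bacterial lipoproteins, Tlr5 flagellin and Tlr3 double-stranded RNA. Tlr3 differs from the others in signalling without Myd88.

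Cd14 was the only gene of the 9 that met the criteria of a changed gene, and its level was lower in the t-DHEA livers. The other 8 genes did not meet them, from the plasma carrier Lbp through the receptors Tlr4, Tlr2, Tlr5 and Tlr3 to the signal transducers Myd88, Irak1 and Traf6. The criteria were a fold-change above 1.2 together with a p below 0.05 before adjustment in edgeR's quasi-likelihood test of the raw counts. Over the 12210 genes tested, 4.95% met them in either direction and 2.98% with a lower level in t-DHEA, and nothing is read from 1 gene of 9 (11.1%) beside that background. No gene of the table had a Benjamini-Hochberg adjusted p below 0.05 in this test, the lowest being 0.242, while 634 genes had an unadjusted p below 0.05. DESeq2 and the likelihood-ratio test of edgeR put 24 and 28 genes of the table past that adjusted threshold, none of them among the 9. The median log2 fold change of the 9 genes was 0.067, with 6 genes higher and 3 lower in t-DHEA, against a median of 0.00131 over all genes tested. In none of the 9 genes did the 3 t-DHEA livers lie entirely above or below the 3 t-PBS livers, whereas 10.1% of all genes tested had such non-overlapping groups, 5.42% with the t-DHEA group lower.

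The promoters of Cd14 and Tlr4, successive receptors for lipopolysaccharide, are shown for a motif of which both held 2 copies. The macrophage factor PU.1 binds a purine-rich core, and its letters GAGGAA were found in 2 copies each in the RefSeq promoters of Cd14 and Tlr4 (assembly GRCr8, 250 bases before to 50 bases after the start of transcription). The stretch of Cd14 lies at chr18:28611253-28611303 on the minus strand, from 145 to 95 bases before that start, and inside the annotated span of the gene. The stretch of Tlr4 lies at chr5:85161175-85161202 on the plus strand, from 72 to 45 bases before the start. In both lines the capitals mark the core, written 5′ to 3′ along the gene; in Tlr4 it stands on the opposite strand and reads TTCCTC.
Cd14: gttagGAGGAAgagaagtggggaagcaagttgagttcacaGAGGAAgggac
Tlr4: ccagcTTCCTCttgctgTTCCTCcagaa
Of 33469 RefSeq promoters of this length, 27.6% held GAGGAA on either strand at least once and 4.83% held it at least 2 times. Tlr3 had 1 copy, and no copy lay in the windows of Tlr2, Tlr5, Myd88 or Irak1. The NF-kB motif GGGANNNNCC, searched on both strands, occurred in 19.3% of promoters, with 2 or more copies in 3.24%. Tlr2 held it as GGGAATTCCC and GGGACGTCCC, each palindromic and therefore counted once, and Cd14 held 1 copy after its start. The AP-1 motif TGANTCA, present in 7.33% of promoters, was found in Myd88 alone, and the GC box GGGCGG, present in 33.1%, in Tlr2 and Myd88. The windows of Tlr5 and Irak1 held none of the motifs searched, which also included the TATA box TATAAA (14.2% of promoters) and the C/EBP motif TTGCNNAA (10.6%). Lbp, Ly96 and Traf6 were not searched. These matches are letters in a window and were not tied to any difference between the groups.

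Lbp, the plasma carrier of lipopolysaccharide, did not differ beyond the spread between livers. Values are given throughout in the order of rats 1, 2 and 3. Its level was 80.9, 51.7 and 83.6 counts per 1000000 counts (CPM) across the t-PBS livers against 63.6, 114 and 85.1 CPM across the t-DHEA livers. The lowest liver of all was t-PBS rat 2 and the highest was t-DHEA rat 2, with the other 4 livers overlapping between them. Mean levels were 72.1 ± 17.7 CPM (SD, n = 3) in t-PBS and 87.6 ± 25.3 CPM (SD, n = 3) in t-DHEA. The log2 fold change was 0.28 ± 0.23 (SE), with a 95% interval from -0.25 to 0.81 (edgeR adjusted p = 0.987, two-sided exact permutation p = 0.4, where 3 against 3 livers cannot go below 0.1). These values come from 702 to 1526 counts per liver, and the variance between livers was 58.8 times the counting variance in t-PBS and 92.8 times in t-DHEA. In Rnor_6.0, the build of the count table, Lbp lies at chr3:154786215-154813464.

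Cd14, which receives lipopolysaccharide from Lbp, fell by 0.70 on the log2 scale in t-DHEA livers. Its level was 26.1, 13.999 and 31.1 CPM across the t-PBS livers against 15.9, 12.8 and 15.1 CPM across the t-DHEA livers. The 3 t-DHEA livers lay close together, and t-PBS rats 1 and 3 lay above all of them, but t-PBS rat 2 lay within their range. Mean levels were 23.7 ± 8.81 CPM (SD, n = 3) in t-PBS and 14.6 ± 1.62 CPM (SD, n = 3) in t-DHEA, a fitted fold of 0.614 with a 95% interval of the log2 fold change from -1.28 to -0.12. In edgeR this gave p = 0.0231 before and 0.933 after adjustment, and the two-sided exact permutation test of the 6 CPM values gave p = 0.3. The t-PBS livers held 975 counts in all and the t-DHEA livers 559, with 95% Poisson intervals from 915 to 1038 and from 514 to 607, which cover counting error only. Between t-PBS livers the variance was 44.1 times the counting variance, and between t-DHEA livers 2.34 times. In whole liver, fewer cells of a type and less RNA per cell cannot be told apart. In Rnor_6.0 Cd14 lies at chr18:29560365-29562153.

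The call of Cd14 was not kept in every fit that left out 1 liver. Each such fit has fewer livers and less power, so a lost call does not show that the liver left out set the effect. Without t-DHEA rat 3 the log2 fold change was no nearer to 0 than in the full fit (-0.70). It was lost when t-PBS rat 1 (log2 fold change -0.63), t-PBS rat 3 (-0.46), t-DHEA rat 2 (-0.61) or t-DHEA rat 3 (-0.72) was left out. Without t-DHEA rat 1 it was kept (-0.77). Without t-PBS rat 2, the liver that overlapped the t-DHEA group, the log2 fold change was -0.97 (edgeR adjusted p = 0.238). The direction was the same in every one of these 6 fits.

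**Figure D1:**
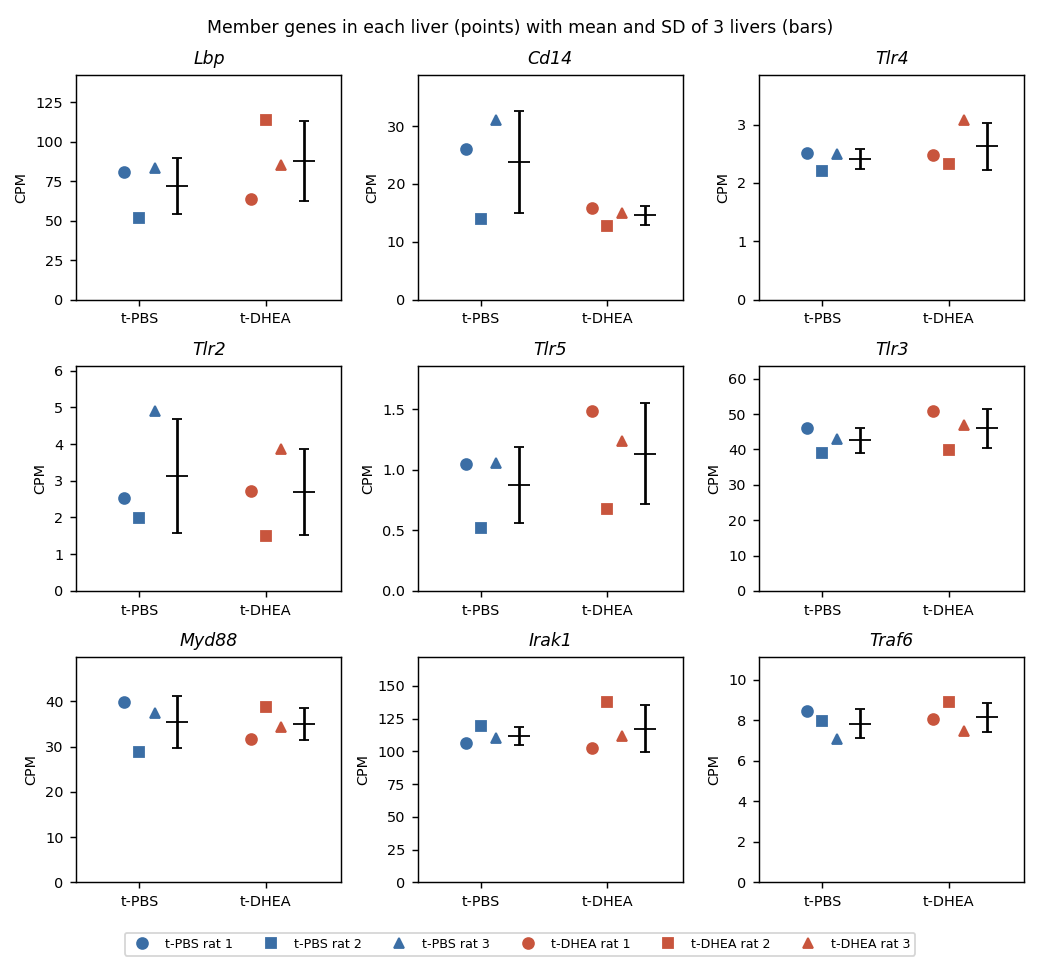
Level of the 9 genes in counts per 1000000 counts (CPM, linear axes from 0) in each of 3 t-PBS livers (blue) and 3 t-DHEA livers (red), with the mean and SD of each group as a bar beside the points; circles, squares and triangles are rats 1, 2 and 3. The groups overlap in every panel, and the Cd14 panel has its 3 t-DHEA livers between 12.8 and 15.9 CPM and t-PBS rat 2 at 13.999 CPM among them.

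Tlr4, the signalling receptor for lipopolysaccharide, was at a low and even level in all 6 livers. It had 2.52, 2.21 and 2.49 CPM across the t-PBS livers against 2.47, 2.32 and 3.09 CPM across the t-DHEA livers. The groups overlapped, and only t-DHEA rat 3 lay outside the range of the t-PBS livers. The means were 2.41 ± 0.171 CPM and 2.63 ± 0.407 CPM (SD, n = 3 each), and the log2 fold change was 0.13 ± 0.23 (SE), with a 95% interval from -0.40 to 0.65 (edgeR adjusted p = 0.99, exact permutation p = 0.6). With 30 to 40 counts per liver, the variance between livers was no larger than counting error, at 0.166 times in t-PBS and 0.821 times in t-DHEA. Tlr4 lies at chr5:82587420-82601052.

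Tlr2, the receptor for bacterial lipoproteins, varied most between rats of the same group relative to its mean. Its level was 2.52, 1.99 and 4.90 CPM across the t-PBS livers against 2.72, 1.49 and 3.86 CPM across the t-DHEA livers. Both groups spanned low and high livers, and the highest liver had 3.28 times the level of the lowest, the widest range among the 9 genes. The log2 fold change was -0.22 ± 0.42 (SE), with a 95% interval from -1.17 to 0.74 (edgeR adjusted p = 0.99, exact permutation p = 0.7). Without t-PBS rat 3 it was 0.25, and without t-DHEA rat 2 it was 0.079, so its sign was not settled by these livers. Tlr2 lies at chr2:182840727-182846061.

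Tlr5, the flagellin receptor, was the lowest of the 9 genes. It had 1.05, 0.516 and 1.06 CPM in the t-PBS livers and 1.48, 0.673 and 1.23 CPM in the t-DHEA livers, from 7 to 18 counts per liver. Rat 2 was the lowest in both groups, and the groups overlapped through it. The log2 fold change was 0.36 ± 0.43 (SE), with a 95% interval from -0.61 to 1.32 (edgeR adjusted p = 0.99, exact permutation p = 0.4), so a rise or a fall by a log2 of 0.5 could not be told from no change at this depth. Tlr5 lies at chr13:101381510-101385764.

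Tlr3, the receptor for double-stranded RNA, was the most abundant of the Toll-like receptors with a row and did not differ between the groups beyond the spread. Its level was 46.0, 39.0 and 42.9 CPM across the t-PBS livers against 50.9, 39.9 and 47.0 CPM across the t-DHEA livers. Rat 2 was the lowest of each group, and the ranges overlapped. Means were 42.6 ± 3.53 CPM and 45.9 ± 5.57 CPM (SD, n = 3 each), a log2 fold change of 0.11 ± 0.12 (SE) and a 95% interval from -0.16 to 0.38 (edgeR adjusted p = 0.989, exact permutation p = 0.4). Tlr3 lies at chr16:50016857-50031214.

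Myd88, the adaptor shared by the Toll-like receptors other than Tlr3 and by the interleukin-1 receptor family, had nearly equal means. It had 39.8, 28.8 and 37.5 CPM in the t-PBS livers and 31.8, 38.7 and 34.4 CPM in the t-DHEA livers. All 3 t-DHEA livers lay inside the range of the t-PBS livers. The means were 35.4 ± 5.79 CPM and 35.0 ± 3.51 CPM (SD, n = 3 each), and the log2 fold change was -0.016 ± 0.14 (SE), with a 95% interval from -0.34 to 0.30 (edgeR adjusted p = 0.996, exact permutation p = 0.9). Myd88 lies at chr8:128022473-128026841.

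Irak1, the kinase that Myd88 recruits, had 106, 119 and 110 CPM in the t-PBS livers and 103, 137 and 111 CPM in the t-DHEA livers. The groups overlapped, with t-DHEA rats 1 and 2 as the lowest and the highest liver of all. The log2 fold change was 0.067 ± 0.12 (SE), with a 95% interval from -0.21 to 0.34 (edgeR adjusted p = 0.99, exact permutation p = 0.8). Irak1, at chrX:156716604-156725977, overlaps a row of the small nucleolar RNA SNORA61, and since the strand setting of the counting is not given in the sources used here, reads of the overlap cannot be assigned. Traf6, the ubiquitin ligase downstream of Irak1, had 8.47, 7.96 and 7.09 CPM in the t-PBS livers and 8.08, 8.89 and 7.49 CPM in the t-DHEA livers. Its highest liver had 1.25 times the level of its lowest, the narrowest range among the 9 genes, and its variance between livers was within counting error in both groups, at 0.853 and 0.806 times. The log2 fold change of Traf6 was 0.056 ± 0.14 (SE), with a 95% interval from -0.27 to 0.38 (edgeR adjusted p = 0.99, exact permutation p = 0.6). Traf6 lies at chr3:91252829-91271607.

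**Figure D2:**
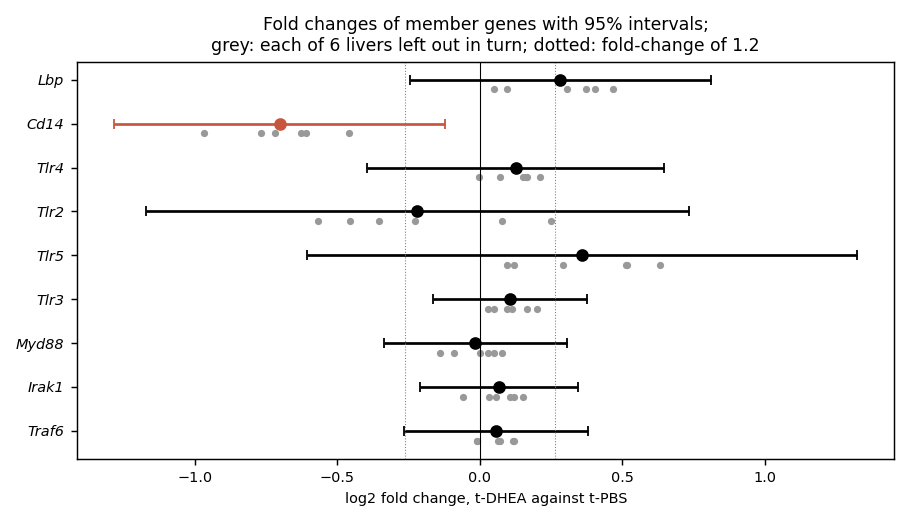
Log2 fold change of t-DHEA against t-PBS for the 9 genes (large points) with 95% intervals (bars) from edgeR's quasi-likelihood fit, with the estimates that each left out 1 of the 6 livers in grey and the 1.2 fold-change limits dotted. The interval of Cd14 (red), from -1.28 to -0.12, lies below 0 and those of the other 8 genes include 0.

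The livers were not ordered alike by the 9 genes. Among t-PBS livers, rat 2 had the lowest Lbp, Cd14, Tlr4, Tlr2, Tlr5, Tlr3 and Myd88, but the highest Irak1. Among t-DHEA livers, rat 2 had the highest Lbp, Myd88, Irak1 and Traf6, and the lowest Cd14, Tlr4, Tlr2, Tlr5 and Tlr3. The liver with the most Lbp was thus the one with the least Cd14 and Tlr2 of all 6.

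Compared per transcript length, the components of the pathway stood at very different levels. By the mean of the deposited FPKM (fragments per kilobase of transcript, per 1000000 fragments) over the 6 livers, the order was Irak1 at 36.6, Lbp at 32.8, Myd88 at 14.3, Cd14 at 11.3, Tlr3 at 8.31, Traf6 at 2.95, Tlr2 at 1.12, Tlr4 at 0.753 and Tlr5 at 0.235 FPKM. The signal transducer Irak1 and the carrier Lbp therefore stood above every receptor of the 9 genes. Myd88 stood above every receptor but Cd14, whose range overlapped that of Myd88. Ranges over the 6 livers overlapped between Irak1 (32.3 to 43.5 FPKM) and Lbp (22.2 to 46.5 FPKM). They also overlapped between Myd88 (12.2 to 16.1 FPKM) and Cd14 (7.44 to 18.4 FPKM), and between Cd14 and Tlr3 (7.41 to 9.38 FPKM). Tlr2 (0.570 to 1.89 FPKM) overlapped Tlr4 (0.686 to 0.915 FPKM). The ranges did not overlap between Lbp and Myd88, between Tlr3 and Traf6 (2.62 to 3.25 FPKM), between Traf6 and Tlr2, or between Tlr4 and Tlr5 (0.126 to 0.343 FPKM).

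Tlr3 made up most of the message of the Toll-like receptors that had a row, and Tlr1 had no row. Of the summed FPKM of the 12 Toll-like receptors with a row, Tlr3 held 54.2%, 56.2% and 50.3% across the t-PBS livers against 57.0%, 63.6% and 56.2% across the t-DHEA livers. The groups overlapped in this share, with t-DHEA rat 2 the highest. Tlr4 held 4.42% to 5.88% of the sum over the 6 livers, and the level of Tlr3 was 9.55 to 12.9 times that of Tlr4.

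**Figure D3:**
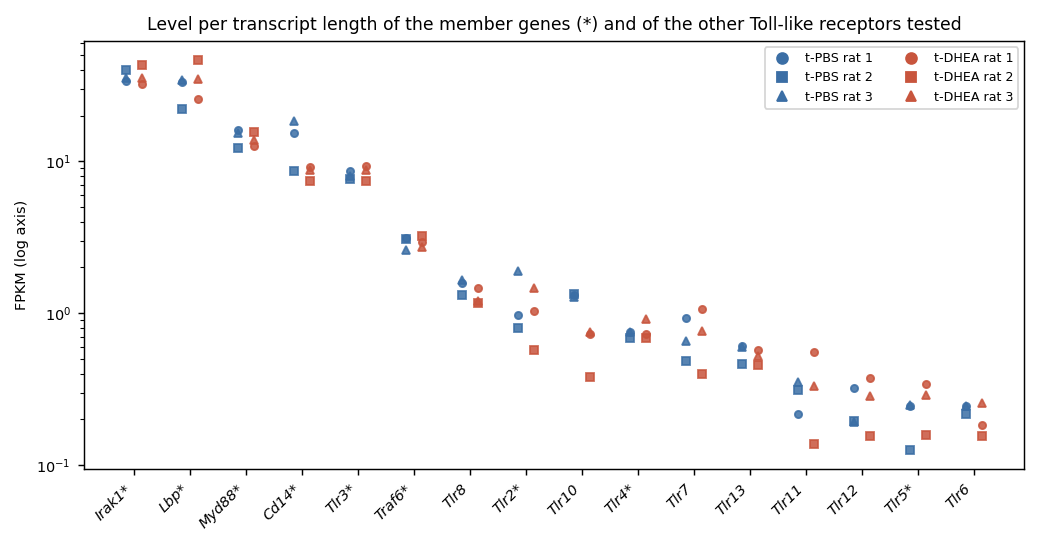
Level per transcript length (FPKM, log axis) of the 9 genes (starred) and of the other tested Toll-like receptors in each of 6 livers, t-PBS in blue and t-DHEA in red, with circles, squares and triangles for rats 1, 2 and 3. Irak1 and Lbp stand highest, Tlr3 stands above every other Toll-like receptor in all 6 livers, and Tlr10 has its 3 t-DHEA livers below its 3 t-PBS livers.

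Tlr10, one of the Toll-like receptors outside the 10 genes, met the criteria. It had 3.08, 3.02 and 3.02 CPM across the t-PBS livers against 1.73, 0.897 and 1.78 CPM across the t-DHEA livers. Its groups did not overlap, and its log2 fold change was -1.05 ± 0.29 (SE, edgeR adjusted p = 0.805), from 12 to 44 counts per liver. Ly86, the partner protein of the Toll-like receptor homologue Cd180 and a relative of MD-2, also met them. It had 5.88, 5.89 and 6.03 CPM in the t-PBS livers and 3.71, 4.63 and 3.63 CPM in the t-DHEA livers, a log2 fold change of -0.57 ± 0.17 (SE, edgeR adjusted p = 0.815). Both kept their call whichever single liver was left out. Among the 13 tested genes of this list of family members and accessory receptors, these 2 were called lower and none higher, beside 4.95% of all genes tested called in either direction. The lowest p among the others was that of Tlr8 (log2 fold change -0.22, edgeR adjusted p = 0.987), and the list median was 0.029.

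Markers of the cell types that carry Cd14 are given beside its level, since whole liver was sequenced. Of 13 tested markers of Kupffer cells, the resident macrophages of the liver, none met the criteria, beside 4.95% of all genes tested. Their median log2 fold change was 0.10. The most abundant were Clec4f, Cd5l and Mrc1, and the summed level of the list ran from 785 to 980 CPM in t-PBS and from 832 to 1138 CPM in t-DHEA. The groups thus overlapped in the Kupffer sum, with t-DHEA rat 3 the highest, while that liver had 15.1 CPM of Cd14. Per 100 CPM of the Kupffer sum, Cd14 stood at 2.90, 1.78 and 3.18 CPM across the t-PBS livers against 1.73, 1.54 and 1.32 CPM across the t-DHEA livers. On this scale, chosen after the values were seen and given with no test, t-PBS rat 2 lay just above the t-DHEA livers. Per CPM of Lbp, a ratio also chosen after the values were seen, Cd14 stood at 0.322, 0.271 and 0.373 in the t-PBS livers and at 0.250, 0.112 and 0.177 in the t-DHEA livers. Blood myeloid cells, which carry Cd14 too, left few reads. Of 12 neutrophil and monocyte markers, 3 passed the filter on low counts, Mpo and Fpr1 were at 0 in all 6 livers, and the list summed to 3.77 to 5.81 CPM in t-PBS and 5.98 to 6.93 CPM in t-DHEA. Itgam, S100a9 and Fcnb were its most abundant members, and S100a9 was called higher (log2 fold change 0.94, edgeR adjusted p = 0.957), a call lost when t-PBS rat 2 (0.77), t-PBS rat 3 (0.92) or t-DHEA rat 1 (0.59) was left out, and with DESeq2 (0.96).

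Over all marker lists, 11 of 61 tested genes met the criteria (18.03%, beside 4.95% of all genes tested). The mesothelial, bile duct and stellate cell sums were lower in t-DHEA without overlap between the groups. The small neutrophil and monocyte sum was higher in t-DHEA without overlap (5.98 to 6.93 CPM against 3.77 to 5.81 CPM in t-PBS). Its most abundant marker, Itgam, went the other way without being called (log2 fold change -0.31). Of its 12 markers, 9 did not pass the filter on low counts. The Kupffer cell, sinusoidal endothelial, lymphocyte and hepatocyte sums overlapped. Mesothelial markers, from the cells of the liver capsule, summed to 34.9 to 37.4 CPM in t-PBS and to 1.87 (rat 2) to 28.4 CPM in t-DHEA. Msln, Upk3b, Muc16 and Upk1b were called lower and Gpm6a was not called. Gpm6a had 10.4, 10.2 and 10.8 CPM in the t-PBS livers and 12.7, 0.149 and 15.9 CPM in the t-DHEA livers. Bile duct markers summed to 18.9 to 23.6 CPM in t-PBS and to 9.49 to 17.1 CPM in t-DHEA, with Krt7 and Krt19 called lower and the more abundant Epcam not called. Of 10 stellate cell markers, which include Colec11 and Reln, Col1a1 (log2 fold change -0.88) and Col3a1 (-0.40) were called lower. The other 8 were not called, with log2 fold changes from -0.19 (Des) to 0.042 (Lrat). Col3a1 was the largest part of the stellate sum, with a mean of 436 CPM in t-PBS and 330 CPM in t-DHEA, so that sum leans on a collagen. Of 8 sinusoidal endothelial markers, Kdr was called higher (0.36) and Fcgr2b and Lyve1 were not called, none of 5 lymphocyte markers was called (Cd4, Nkg7 and Cd8a being the most abundant), and of 11 hepatocyte markers, headed by Alb, Tf and Serpina1, Tat was called higher (0.68). The lymphocyte sum was mostly Cd4, with a mean of 23.7 CPM over the 6 livers against 0.787 CPM for Cd3e. The overlap of that sum is thus mainly that of Cd4, and it says little about lymphocytes or their other markers. Some of these calls were lost in the less powerful fits without 1 liver. Upk1b was lost when t-PBS rat 3 (-1.45), t-DHEA rat 1 (-1.34) or t-DHEA rat 2 (-1.29) was left out, and Krt7 when t-PBS rat 3 (-1.87) or t-DHEA rat 1 (-1.83) was. Col1a1 was lost when t-PBS rat 2 was left out (-0.58), Col3a1 when t-PBS rat 2 (-0.29) or t-DHEA rat 2 (-0.30) was, and Kdr when t-PBS rat 1 (0.22), t-DHEA rat 1 (0.34) or t-DHEA rat 2 (0.33) was. The part of these cells in the lower level of Cd14 was not tested.

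**Figure D4:**
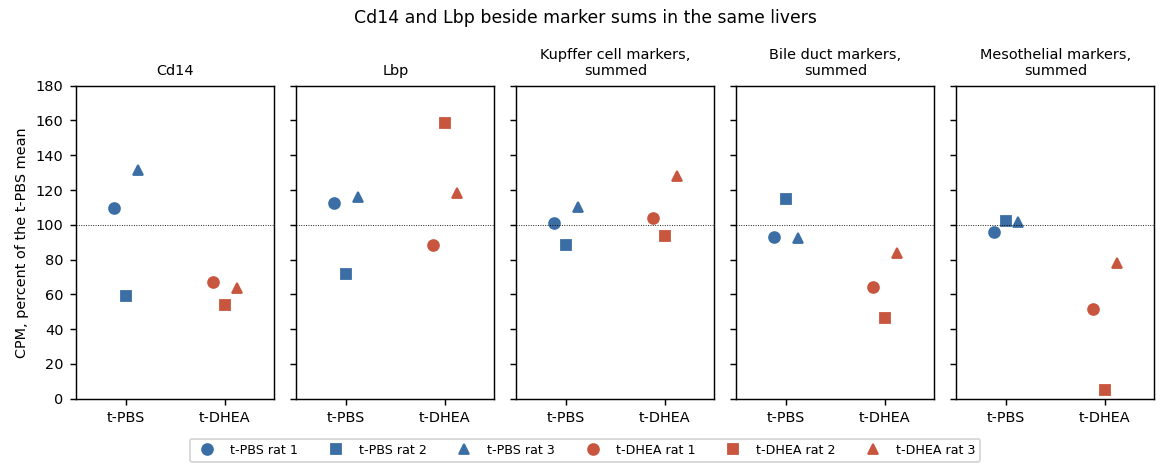
CPM of Cd14, of Lbp and of 3 summed marker lists in each liver, as percent of the mean of the 3 t-PBS livers (dotted line at 100), with t-PBS in blue, t-DHEA in red and circles, squares and triangles for rats 1, 2 and 3. The t-DHEA livers lie below the t-PBS livers for the bile duct and mesothelial sums, and the groups overlap for Cd14, Lbp and the Kupffer cell sum.

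The rest of the pathway was read from 8 lists written from general knowledge, in which 115 of 120 genes had a row, 98 were tested and 9 met the criteria (9.18%, against 4.95% of all genes tested), 2 higher and 7 lower in t-DHEA. The median log2 fold change of the 98 genes was 0.013. The lists overlap in function and were chosen with results of these data known, so these counts are a description.

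Immediately downstream of the receptors, 18 of 19 adaptors, kinases and ligases were not called, beside 4.95% of all genes tested called in either direction. The list median log2 fold change was -0.062. Ticam2, the adaptor that links internalised Tlr4 to interferon signalling, was called lower, with 2.73, 2.43 and 3.54 CPM across the t-PBS livers against 1.90, 1.35 and 2.32 CPM across the t-DHEA livers. The groups of Ticam2 did not overlap, and its log2 fold change was -0.65 ± 0.28 (SE, edgeR adjusted p = 0.957). That call was lost without t-PBS rat 1 (-0.69), t-PBS rat 3 (-0.48), t-DHEA rat 1 (-0.66) or t-DHEA rat 2 (-0.45), and with DESeq2 (-0.65) or no filter on low counts (-0.64). Next by p were the ubiquitin ligase Peli2 (log2 fold change -0.27) and the kinase Btk (-0.48), neither called (edgeR adjusted p = 0.987 each). Of the 8 NF-kB and interferon regulatory transcription factors none was called, beside the same 4.95% of all genes tested. The lowest p among them were those of Relb (-0.37), Irf3 (0.11) and Nfkb2 (0.13), and the list median was 0.0082.

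Among 15 tested negative regulators of Toll-like receptor signalling, Tnfaip3 was called lower and 14 were not called, beside 4.95% of all genes tested called in either direction. The list median was 0.012. Tnfaip3, the ubiquitin-editing enzyme A20 and itself induced by NF-kB, had 4.55, 4.57 and 5.58 CPM across the t-PBS livers against 3.30, 3.81 and 3.16 CPM across the t-DHEA livers. The groups of Tnfaip3 did not overlap, and its log2 fold change was -0.51 ± 0.19 (SE, edgeR adjusted p = 0.935). The call was lost without t-PBS rat 3 (-0.41), t-DHEA rat 1 (-0.49) or t-DHEA rat 3 (-0.45), and with DESeq2 (-0.51). Tollip, which restrains Irak1, had a log2 fold change of 0.095, and the NF-kB inhibitor Nfkbie of -0.24 (edgeR adjusted p = 0.987 each).

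Many of the genes that endotoxin induces were near the limit of detection in both groups. Of 22 with a row, 10 did not pass the filter on low counts, and Il6, Cxcl2 and Ifnb1 had no count in any of the 6 livers, where 3 counts, the limit a count of 0 allows, correspond to 0.21 to 0.243 CPM. Among the 12 tested, the median log2 fold change was -0.13, with 1 gene called higher and 2 lower, beside 4.95% of all genes tested called in either direction. Lcn2, the siderophore-binding acute phase protein lipocalin 2, had 8.61, 6.04 and 4.68 CPM across the t-PBS livers against 3.46, 1.94 and 3.86 CPM across the t-DHEA livers. The groups of Lcn2 did not overlap, its log2 fold change was -1.07 ± 0.30 (SE, edgeR adjusted p = 0.805), and the call was kept whichever single liver was left out. Cxcl1, a neutrophil chemokine, had 4.76, 1.77 and 3.09 CPM in t-PBS and 1.90, 1.64 and 1.003 CPM in t-DHEA, and its groups overlapped. Its log2 fold change was -1.08 ± 0.40 (SE, edgeR adjusted p = 0.935), and leaving out t-PBS rat 1 (-0.68) or t-DHEA rat 3 (-0.85) ended the call. Ccl5, a chemokine for T cells, was called higher, with 1.89, 2.43 and 3.77 CPM in t-PBS and 4.21, 4.56 and 4.32 CPM in t-DHEA. Its groups did not overlap, and the log2 fold change was 0.70 ± 0.26 (SE, edgeR adjusted p = 0.95). The call of Ccl5 was lost without t-PBS rat 1 (0.49), t-PBS rat 2 (0.63), t-DHEA rat 2 (0.67) or t-DHEA rat 3 (0.71).

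Of 11 tested genes of endotoxin binding and clearance, none was called higher and 1 lower, beside 4.95% of all genes tested called in either direction. The list median was 0.076. Alpl, tissue-nonspecific alkaline phosphatase, which can remove phosphate from lipopolysaccharide, was called lower at 6 to 39 counts per liver. Its log2 fold change was -1.06 ± 0.44 (SE, edgeR adjusted p = 0.957), its groups overlapped, and the call was lost without t-PBS rat 2 (-0.83), t-PBS rat 3 (-0.98), t-DHEA rat 1 (-0.74) or t-DHEA rat 2 (-1.10). Marco, a scavenger receptor of macrophages, had a log2 fold change of 0.53, and Pltp, a plasma protein that transfers phospholipids and lipopolysaccharide between lipoproteins, of 0.18, and neither was called (edgeR adjusted p = 0.987 each).

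The interleukin-1 receptor family shares Myd88 with the Toll-like receptors. Of 7 tested genes of these receptors and their ligands, 1 was called, beside 4.95% of all genes tested. Il18r1 was called higher from 6 to 16 counts per liver (log2 fold change 0.88 ± 0.37, SE, edgeR adjusted p = 0.957). That call was kept without t-DHEA rat 3 and lost without any one of the other 5 livers (0.75 to 0.98), with DESeq2 (0.90), without the filter on low counts (0.89) and with limma on log2(FPKM + 0.1) (0.56) or log2(FPKM + 1) (0.14). The alarmin Il33 (0.24) and the receptor antagonist Il1rn (-0.21) were not called, and the list median was -0.064. Acute phase plasma proteins, which hepatocytes secrete in response to endotoxin and interleukin-6, were represented by 13 tested genes. Of the 13, none was called, beside the same 4.95% of all genes tested. Their median log2 fold change was 0.10, A2m had no count in any liver, and the lowest p among them were those of Cp (0.32), Orm1 (0.34) and Hp (0.18).

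**Figure D5:**
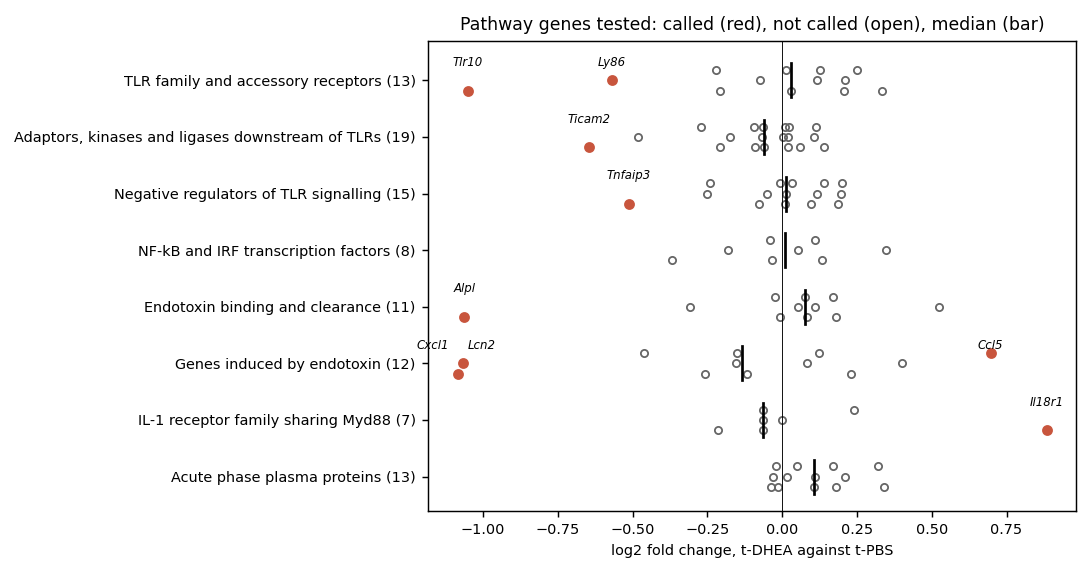
Log2 fold change of t-DHEA against t-PBS of the 98 tested pathway genes in 8 lists, with the number tested in brackets; red points met the criteria and are named, open points did not, and black bars are list medians. The 9 called genes are 7 lower and 2 higher, and list medians run from -0.13 to 0.10.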

How the data were processed

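Total RNA of 6 livers was sequenced from paired-end libraries. The authors aligned reads with HISAT2 2.0.4 to Rnor_6.0 and deposited raw counts per gene from StringTie 1.3.0, and FPKM values scaled by gene length and library total; the annotation release and strandedness are not given in the sources used here. Total counts ran from 12348511 to 14316886 per liver. In R 4.3.3, edgeR 4.0.16 (TMM factors, default filter on low counts, quasi-likelihood test) was fitted to all 12210 genes that passed, and genes were called at a fold-change above 1.2 with a p below 0.05 before Benjamini-Hochberg adjustment, the thresholds of the study's methods, where edgeR was run on FPKM. Here it was run on the counts, since FPKM do not suit a count model. Scripts were tested on simulated data. CPM are counts per 1000000 of the TMM-scaled library. No pair of livers agreed within sampling noise (lowest chi-square divided by its degrees of freedom, 16.2).

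The genes and lists were chosen with earlier results of these data known. Genes named were the 10 members, every called gene of a list, up to 3 genes of lowest p per pathway list, and up to 3 of the most abundant per marker list. Of 120 pathway genes, Tlr1, Ticam1, Ube2v1, Nos2 and Serpina3n did not match a row, Acod1 matched by an older symbol, and of 2 rows named Tnf the one with more counts was used. Some genes of the lists are not reported here and were left out of their counts and sums. Alternatives included the Wald test of DESeq2 1.42.0 and the likelihood-ratio test of edgeR, other scalings and filters, limma 3.58.1 on log2(FPKM + 0.1) and log2(FPKM + 1), a replicate block, and leaving out each liver.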

Additional observations from a re-analysis of the deposited data

How the results depend on the processing

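Of the 9 genes, 1 (Cd14) was called under every other test, scaling, filter and pseudocount tried, and also at 1.5-fold; its log2 fold change ran from -0.73 to -0.62 over these. With an adjusted p below 0.05 in the quasi-likelihood test, 0 of the 9 genes, 0 of the listed genes (20 in the fit reported) and 0 of all genes were called, against 604 of all genes in that fit and 275 at 1.5-fold. With at least 10 counts required in every liver, which tests fewer genes, 13 listed genes were called. DESeq2 and the likelihood-ratio test each put 2 listed genes, Muc16 and Upk3b, and none of the 9 past that adjusted threshold. The 6 fits without 1 liver gave 0 to 1 of the 9 genes called, 15 to 22 listed genes, 514 to 747 of all genes, and 0 to 2 of the 9 genes with non-overlapping groups (Cd14 without t-PBS rat 2, Lbp without t-DHEA rat 1, Tlr5 and Tlr3 without t-DHEA rat 2). Groups with fewer livers separate more easily. The share of all genes with non-overlapping groups was not computed without 1 liver, so nothing is read from these separations. The sign of genes not called turned in some of these fits: log2 fold changes ran from -0.0019 to 0.21 for Tlr4, -0.57 to 0.25 for Tlr2, -0.14 to 0.078 for Myd88, -0.061 to 0.15 for Irak1 and -0.010 to 0.12 for Traf6; the cause was not tested. Lbp (0.049 to 0.47), Tlr5 (0.097 to 0.63) and Tlr3 (0.027 to 0.20) kept theirs. No pairing by rat number was seen: deviations of same-numbered livers correlated at -0.0524, -0.0626 and -0.039, and those of different-numbered livers at -0.0759 to 0.117. With 3 livers per group these values cannot exclude a weak pairing. With the rat number as a replicate block, Cd14 had a log2 fold change of -0.64 (edgeR adjusted p = 0.979), 539 of all genes and 20 listed genes were called, and Il18r1 was not (0.88). Krt7 lost its call with DESeq2 (-2.18), and Kdr without TMM (0.32) and with limma on log2(FPKM + 0.1) (0.33) and log2(FPKM + 1) (0.31). Depth limits Tlr4, with 30 to 40 counts per liver, and Tlr5, with 7 to 18.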
